A study of Mus musculus with 6 samples.

Results

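The arrays compared here are the 4 arrays of fibroblasts given tamoxifen to delete lysyl hydroxylase 2 (LH2), split by the time written in their raw file names: 2 carry 48 h and 2 carry 24 h, of 6 arrays in all. The cells are fibroblasts grown from tail tissue (TTF); the donors were C57BL/6 mice carrying floxed LH2 and CAG-Cre (LH2F/F CAG-Cre), and the labels give every array, controls included, the genotype LH2 cKO. CAG is a broadly active promoter. The cells titled no.1 had 24 h of tamoxifen and stayed in tamoxifen (+) medium, the cells titled no.2 had 24 h of tamoxifen followed by tamoxifen (-) medium, and the control cells were kept in tamoxifen (-) medium, with 0 h in both file names. Each of no.1 and no.2 has a first replicate with 24 h and a second replicate with 48 h in the file name. All 4 carry 24 h of tamoxifen in the labels, so time comes from the file name alone, and the arrays are called 24 h-named and 48 h-named here. File-name time, replicate number and slide position cannot be told apart: all 6 arrays lay on 1 slide, and in its row 2 the 24 h-named arrays took columns 1 and 3 and the 48 h-named arrays columns 2 and 4. The ages of the mice were not given in the sources used here. Nothing says that the arrays come from separate animals or cultures, so p-values measure only the spread between these arrays.

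LH2, the product of Plod2, hydroxylates lysines in the telopeptides of collagen chains, and this step sets which crosslinks the fibrils form. Fibroblasts in culture make and remodel this collagen matrix, and they also secrete complement proteins and chemokines. When they grow crowded or quiescent they usually lower cell-cycle genes, while interferon, acting through STAT and IRF factors, switches on a shared set of antiviral genes. These statements are background and were not measured here.

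A level is the log2 processed signal less the 75th percentile of its array, and a difference is the 48 h-named level minus the 24 h-named level of the same pair, so a difference of 1 is 2-fold. The 75th percentile over the spike-in controls, set at 1 on the 24 h-named array of no.1, was 0.96 on its 48 h-named array. It was 0.51 and 0.76 on the 24 h-named and 48 h-named arrays of no.2, and 0.26 on both control arrays. Spike-in scaling would therefore raise the 4 arrays against the controls. Comparisons with control arrays hold for the 75th-percentile scale only. Of 56605 probes, between 48.4% and 53.5% were well above background on the 4 arrays, against 44.2% and 45.7% on the control arrays. Fibroblast markers fitted the label: 17 of 21 were well above background on all 4 arrays. The same held for 6 of 15 keratinocyte, 2 of 14 endothelial and 6 of 17 macrophage and leukocyte markers, while 9, 8 and 9 of them were well above background on none of the 4 arrays, among them Krt5 and Krt14, Cdh5 and Ptprc, which define these cells.

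The 48 h-named and 24 h-named arrays of a pair differed at many genes, but the no.1 pair and the no.2 pair shared few of the differences. Among 17788 genes well above background on all 6 arrays, 5.03% differed by 2-fold or more in the no.1 pair and 5.08% in the no.2 pair, against 0.275% between the control arrays. In the no.1 pair 1150 of 21808 tested genes (5.27%) were at least 2-fold higher on the 48 h-named array and 287 (1.32%) at least 2-fold lower. The no.2 pair leaned the other way, with 750 genes (3.44%) at least 2-fold higher and 1033 (4.74%) lower. Both pairs were at least 2-fold higher at 193 genes (0.885%) and at least 2-fold lower at 51 (0.234%), so 79.1% of these shared differences were higher on the 48 h-named arrays. With scaling to the spike-in controls that share was 95.3%, and with no filter on dim probes it was 63.9%. Across genes, which are not independent replicates, the differences of both pairs correlated weakly (Pearson r = 0.21, Spearman rho = 0.18).

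limma, fitted to the 4 arrays with the pair as a term and 1 residual degree of freedom, called no gene at an adjusted p under 0.05 (0.0% higher and 0.0% lower). It gave 1918 genes an unadjusted p under 0.05, and its smallest adjusted p was 0.0589. Each SE below is limma's moderated SE, which leans more on the spread over all tested genes than on that gene's 2 pairs. With 2 pairs an exact permutation test of 1 gene cannot go below p = 0.5. The number of calls turned on the settings: 71 genes were called higher and 17 lower with scaling to the median probe, and 44 higher and 6 lower with a trend in the variance. In simulated data of this size 81.5% of genes with a log2 change of 2 were recovered and 0.5% of genes with a log2 change of 1. Counts of genes past 2-fold in both pairs are therefore a description.

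**Figure D1:**
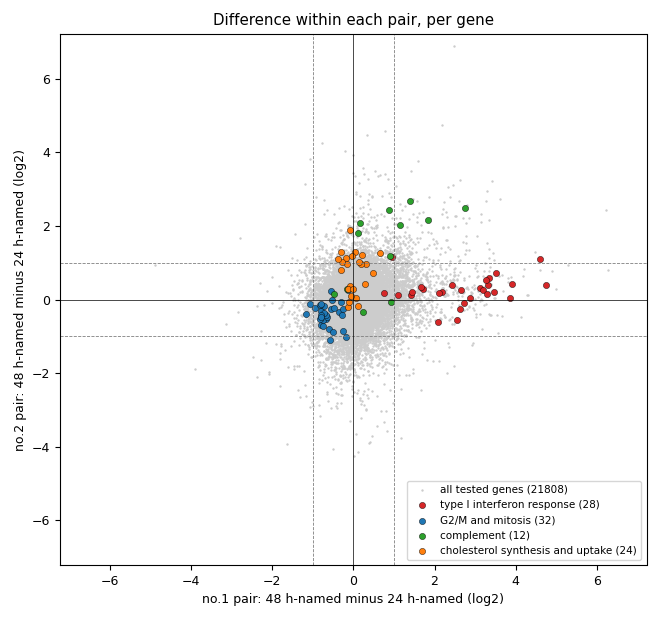
Each grey point is 1 of 21808 tested genes, with its log2 difference (48 h-named minus 24 h-named) in the no.1 pair on the horizontal axis and in the no.2 pair on the vertical axis; dashed lines mark 2-fold. Interferon genes (red) lie far to the right, cholesterol genes (orange) lie high near the vertical line, complement genes (green) reach the upper right, and mitotic genes (blue) lie at the lower left.

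The 4 arrays did not fall into 2 groups by file-name time. By root mean square difference over genes on the log2 scale, the closest arrays were the 48 h-named array of no.1 and the 24 h-named array of no.2, at 0.45, and the arrays of the no.1 and no.2 pairs were 0.59 and 0.61 apart. The 48 h-named arrays were 0.56 apart and the 24 h-named arrays 0.75 apart. The most distant were the 24 h-named array of no.1 and the 48 h-named array of no.2, at 0.90. By a robust SD, which weighs large differences less, the first place was not distinct: 0.416 between the no.1 arrays, 0.426 between the 48 h-named arrays and 0.428 for the 48 h-named array of no.1 against the 24 h-named array of no.2. Over all tested genes, 33.0% of the sum of squares among the 4 arrays lay with file-name time, 45.0% with no.1 against no.2 and 22.0% with what was left. Each part has 1 degree of freedom, so an even split would give file-name time about the share it had.

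Plod2, the targeted gene, was lower on the 48 h-named array of both pairs. Its level was -1.60 and -2.31 on the 24 h-named and 48 h-named arrays of no.1, and -2.05 and -2.73 on those of no.2, against 0.30 and 0.05 on the control arrays. On this scale every one of the 4 arrays lay below both control arrays, and both 48 h-named arrays lay below both 24 h-named arrays. By the spike-in ratios given above, neither order holds with spike-in scaling. There the 24 h-named array of no.1 lies slightly above both control arrays. The 48 h-named array of no.1 then lies above the 24 h-named array of no.2. The mean difference was -0.70 ± 0.27 (moderated SE over 2 pairs), with a limma adjusted p of 0.53. The place of its single probe relative to the deleted part was not checked here. Plod1, which hydroxylates helical lysines, differed by 0.34 in the no.1 pair and -0.10 in the no.2 pair. Plod3, which also adds glucose to hydroxylysine, differed by -0.10 and -0.15, and its 2 probes went in opposite directions.

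The 10 largest shared differences in each direction were taken by the smaller of the 2 pair differences, among genes well above background on all 4 arrays with a RefSeq symbol that is no clone, locus or accession name. These limits left out larger differences, such as Steap4 (3.29 and 2.96; well above background on 1 of the 24 h-named arrays) and U90926 (-3.90 and -1.88; an accession name), both picked after their values were seen. Upward, Apod was first. Apod, a lipocalin that carries small lipids, had a level of -1.33 and 2.08 on the 24 h-named and 48 h-named arrays of no.1, and 3.03 and 6.26 on those of no.2. The order of the 4 arrays ran up toward the control level of 6.52 and 6.63, and the lowest array was the 24 h-named array of no.1. Its mean difference was 3.32 ± 0.27 (moderated SE over 2 pairs), or 9.99-fold, with a limma adjusted p of 0.0589. Pamr1, a secreted protein with a peptidase-like domain, had levels of -3.97 and -0.70 in no.1 and -0.37 and 2.30 in no.2, a mean difference of 2.97 ± 0.29 (adjusted p = 0.0589). Rspo3, an R-spondin that strengthens Wnt signalling, had levels of -3.53 and -0.81 in no.1 and -0.95 and 1.27 in no.2, a mean difference of 2.47 ± 0.29 (adjusted p = 0.0589). For Rspo3 the 24 h-named arrays both lay below the 48 h-named arrays, and the control arrays at 0.79 and 0.69 lay between the 48 h-named arrays.

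Cdkn1c, which encodes the cyclin-dependent kinase inhibitor p57, had levels of 1.62 and 3.49 in no.1 and 3.66 and 6.45 in no.2, above both control arrays at 0.24 and 0.43. Its difference was 1.87 in the no.1 pair and 2.79 in the no.2 pair. Thus Cdkn1c was higher on every one of the 4 arrays than on the controls, unlike Apod. Klf15, a zinc-finger factor that responds to glucocorticoids, differed by 2.21 and 1.97 in the no.1 and no.2 pairs. Dio3, the deiodinase that inactivates thyroid hormone, differed by 2.78 and 1.74. Both genes were highest on the 48 h-named array of no.2. The other genes of the 10 were Rab3il1, a Rab exchange factor (2.78 and 2.07), Cfb, complement factor B (1.85 and 2.17), Pdgfrl, a receptor-like gene (1.83 and 1.82), and Ogn, the proteoglycan osteoglycin (1.68 and 2.03). Limma's adjusted p for these 7 genes lay between 0.0702 and 0.135, and 5 of the settings tried called each of the 10 genes. Spike-in scaling and no filter on dim probes are among the 5, and there a gene's own pairs weighed little or nothing.

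Of the 193 genes at least 2-fold higher in both pairs, 93 were well above background on all 4 arrays. In 74 of the 193 the levels ran in 1 order. They rose from the 24 h-named to the 48 h-named array of no.1, then to the 24 h-named and 48 h-named arrays of no.2. This order needs a rise in both pairs, which is what chose the 193 genes. Of 21808 tested genes, 5119 were higher in both pairs and 2401 showed the order. In 145 of the 193 (75.1%) the control mean lay above the 24 h-named mean, against 52.7% of all tested genes. The 24 h-named level chose these genes and enters this share, so it is a description.

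**Figure D2:**
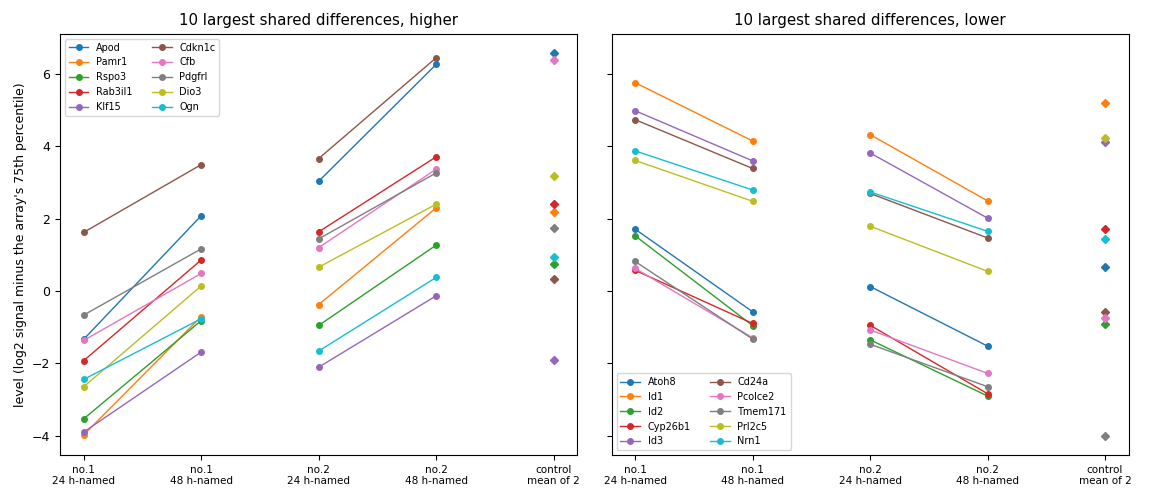
Level (log2 signal minus the array's 75th percentile) on each of the 4 arrays for the 10 genes with the largest shared differences upward (left) and downward (right), with lines joining the arrays of a pair and diamonds for the mean of the 2 control arrays. Apod climbs from -1.33 to 6.26 over the 4 arrays, and Id1 goes from 5.76 down to 2.49.

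Downward, the inhibitor of DNA binding genes stood out as a family. Id1, Id2 and Id3 encode helix-loop-helix proteins that bind other such factors and keep them off DNA, and they are classic targets of BMP signalling. Id1 had levels of 5.76 and 4.15 on the 24 h-named and 48 h-named arrays of no.1 and 4.32 and 2.49 on those of no.2. Its mean difference was -1.72 ± 0.27 (moderated SE over 2 pairs, adjusted p = 0.146). Id2 had levels of 1.53 and -0.95 in no.1 and -1.35 and -2.90 in no.2, a mean difference of -2.02 ± 0.32 (adjusted p = 0.146). Id3 had levels of 4.98 and 3.60 in no.1 and 3.82 and 2.02 in no.2, a mean difference of -1.59 ± 0.28 (adjusted p = 0.192). In each of the 3 genes the 24 h-named array of no.1 was highest and the 48 h-named array of no.2 lowest, with the control arrays between them. Atoh8, another helix-loop-helix gene, differed by -2.28 in the no.1 pair and -1.65 in the no.2 pair (adjusted p = 0.135). Bmp2, a BMP ligand, went the other way, by 2.19 and 2.31, and was well above background on 1 of the 24 h-named arrays. Smad6 and Smad7, which restrain the pathway, differed by -1.22 and -0.25 and by -0.92 and -0.51. Over the 22 tested genes of the TGF-beta and BMP list, 4 were higher in both pairs and 9 lower, and none was called (the all-gene share was 23.5% higher in both and 32.9% lower).

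The rest of the 10 genes downward had varied roles. Cyp26b1, which breaks down retinoic acid, differed by -1.47 and -1.89 in the no.1 and no.2 pairs, and Pcolce2, an enhancer of procollagen processing, by -1.92 and -1.20. Cd24a, a surface glycoprotein, had levels of 4.74 and 3.39 in no.1 and 2.70 and 1.47 in no.2, all above the control levels of -0.67 and -0.50. Nrn1, a surface protein first known in neurons, differed by -1.08 and -1.09. Tmem171 (-2.14 and -1.17) and Prl2c5 (-1.13 and -1.25) complete the set; Prl2c5 has near-identical relatives, so its probe may read several of them. None of these 6 genes had a limma adjusted p under 0.169.

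A gene well above background on both arrays of 1 file-name time and neither of the other has only a bound. The bright arrays' mean was set against the dim arrays' floor, taken on each dim array as its dimmest probe that was still well above background, or as the probe's own signal where that was brighter. Gdf6, a BMP-family ligand, was at least 5.49-fold higher on the 48 h-named arrays, with measured means of -6.13 (24 h-named) and -1.45 (48 h-named) and an adjusted p of 0.203. Its 48 h-named levels were -4.02 in no.1 and 1.12 in no.2, so the no.2 array carried most of it. Kif26b, a kinesin-family gene, was at least 3.68-fold higher (means -4.09 and -2.02, adjusted p = 0.359). Cldn1, a tight-junction claudin, was at least 3.41-fold higher (-4.21 and -2.14, adjusted p = 0.333). For these 2 genes too the no.2 pair carried most of the bound. Kif26b went from -4.58 to -3.71 in no.1 and from -3.60 to -0.33 in no.2. Cldn1 went from -4.40 to -3.36 in no.1 and from -4.01 to -0.91 in no.2. Pde3b, a cyclic nucleotide phosphodiesterase, was at least 1.89-fold lower (-2.97 and -4.69; adjusted p = 0.146), Wscd2 at least 1.87-fold lower (-2.98 and -4.56; adjusted p = 0.192) and Ly75, an endocytic receptor, at least 1.74-fold lower (-3.09 and -4.66; adjusted p = 0.351). Of 21808 tested genes, such bounds could be set for 184 higher and 110 lower on the 48 h-named arrays. The detection filter fixed their direction, so these counts are a description. In some of these genes the 2 pairs went in opposite directions.

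Cell-cycle genes were lower on the 48 h-named array of both pairs, by modest and even amounts. Of 31 tested genes of G1/S and DNA replication, 29 were lower in both pairs and 0 higher, and of 32 genes of G2/M and mitosis 30 were lower in both and 0 higher, against 32.9% and 23.5% of all tested genes. The median difference was -0.55 and -0.52 for G1/S in the no.1 and no.2 pairs and -0.67 and -0.38 for G2/M, against -0.03 and -0.08 over all tested genes. No member was called. With scaling to the spike-in controls, which put the median of all genes at 0.50 in the no.2 pair, the no.2 medians turned to 0.06 and 0.20, still below that shift, and 12 G1/S and 7 G2/M genes were lower in both pairs.

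Ccnb1, the mitotic cyclin, had levels of 4.69 and 3.90 on the 24 h-named and 48 h-named arrays of no.1 and 3.60 and 2.92 on those of no.2. Its mean difference was -0.74 ± 0.27 (moderated SE over 2 pairs, adjusted p = 0.51), and all 4 arrays lay above the control arrays at 1.82 and 1.76. Plk1, a kinase of mitotic entry and exit, had levels of 6.06 and 5.48 in no.1 and 5.83 and 4.73 in no.2. Aurka, the centrosomal Aurora kinase, differed by -0.75 and -0.73, and Cdc20, which activates the anaphase-promoting complex, by -0.60 and -0.80. In G1/S, Ccne1 (cyclin E) differed by -0.75 and -0.80, Gins1 of the replicative helicase by -0.70 and -0.68, Tyms, which makes thymidylate, by -0.58 and -0.63, and Pola1, the primase-coupled polymerase, by -0.55 and -0.59. None of these 8 genes reached 2-fold in both pairs. Among inhibitors, Cdkn2a was higher by 0.61 and 0.59 beside Cdkn1c, while the p53 target Aen was lower by 0.51 and 0.54 on the log2 scale. The 24 p53 and inhibitor genes split into 7 higher in both pairs and 10 lower (all genes 23.5% and 32.9%).

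To show what these genes share beside their levels, their proximal promoters (the 250 bases before the start, RefSeq, GRCm38.p6) were searched on both strands. The CCAAT box (CCAAT) stood in 21 of 27 G2/M promoters (77.8%) and 18 of 26 G1/S promoters (69.2%), against 37.5% of 27025 genes; it also stood in 9 of 12 promoters of the MHC class I list (75%), which was on the higher side. The CHR element (TTTGAA), a repressor site of mitotic genes, stood in 10 of 27 G2/M promoters (37.0%) and 4 of 26 G1/S promoters (15.4%), against 18.3% of all genes. The lists hold tested genes only. Over the 10770 tested genes with a promoter, the shares were 40.3% for the CCAAT box and 13.4% for CHR. Each motif was counted whether or not a match overlapped the other. An 80-base stretch of 2 promoters shows the motifs in capitals, CCAAT for Ccnb1 (chr13:100786528-100786607, minus strand) and CHR for Cdc20 (chr4:118437344-118437423, minus strand).
Ccnb1: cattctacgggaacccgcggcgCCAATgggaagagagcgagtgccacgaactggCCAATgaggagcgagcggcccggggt
Cdc20: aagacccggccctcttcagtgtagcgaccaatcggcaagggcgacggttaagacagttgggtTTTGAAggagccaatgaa
A match is a description of letters and was not tested as a site.

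**Figure D3:**
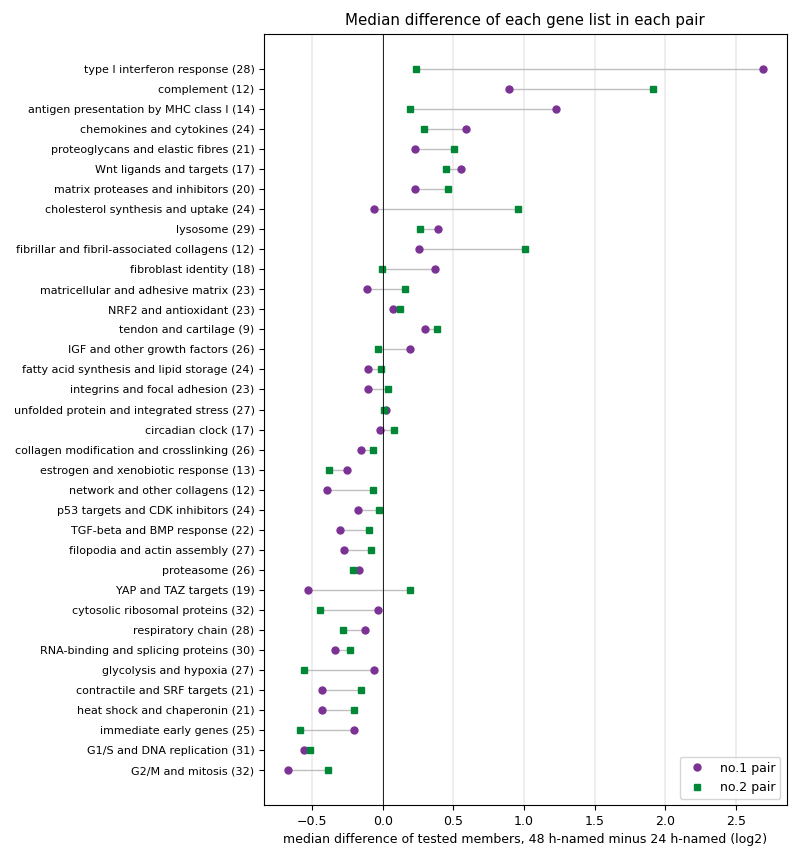
Median log2 difference (48 h-named minus 24 h-named) of the tested members of each gene list in the no.1 pair (circles) and in the no.2 pair (squares), with the number of tested members in brackets. The interferon list is at 2.69 in the no.1 pair and 0.23 in the no.2 pair, and both cell-cycle lists are below 0 in both pairs.

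Type I interferon response genes differed strongly in the no.1 pair and little in the no.2 pair. All 28 tested genes were higher on the 48 h-named array of no.1 (all genes 47.4%) and 26 of them by 2-fold or more (all genes 5.27%). In the no.2 pair 24 were higher (all genes 43.1%) and 2 by 2-fold or more (all genes 3.44%). The median difference was 2.69 and 0.23. The median level was 2.32 on the 24 h-named array of no.1, and 4.43, 4.36 and 4.65 on the 48 h-named array of no.1 and the 24 h-named and 48 h-named arrays of no.2, against 4.93 and 4.98 on the control arrays. One array, the 24 h-named array of no.1, thus stood low, and the 3 others lay close together. With 1 array a side, the difference between the pairs was not tested.

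Ifit1, which binds foreign RNA caps, had levels of 0.82 and 4.34 in no.1 and 3.70 and 4.43 in no.2, against 4.39 on both control arrays. Zbp1, a sensor of Z-form nucleic acid, had levels of -1.85 and 2.74 in no.1 and 3.25 and 4.36 in no.2; the control levels were 5.92 and 6.08. Oas3, an oligoadenylate synthetase, had levels of -1.57 and 1.76 in no.1 and 1.76 and 2.34 in no.2. In all 3 the no.1 difference exceeded the no.2 difference: 3.52 against 0.73, 4.59 against 1.11 and 3.33 against 0.58. Ifit2 was the exception among the named genes, at 0.96 and 1.16, and the 1 gene of the list past 2-fold in both pairs was Zbp1. Isg15, the ubiquitin-like modifier, and Rsad2 (viperin), taken up here after their values were seen, differed by 2.72 and -0.10 and by 3.92 and 0.43. No member was called, and the smallest adjusted p in the list was 0.351. The summed signal of 17 macrophage and leukocyte markers, in multiples of the array's 75th percentile, was 29.8 and 33.7 in no.1 and 38.4 and 31.1 in no.2. Of the 17 markers, 9 were well above background on none of the 4, including Ptprc, Adgre1 and Tyrobp, and the part of such cells in the result was not tested. A lower level can come from fewer cells that express a gene or from less RNA in each, which bulk RNA cannot tell apart.

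The interferon-stimulated response element (searched as GAAA, 2 bases of any kind and GAAA, on both strands) stood in 8 of 21 promoters of the list (38.1%), against 3.46% of 27025 genes. Over the 10770 tested genes with a promoter its share was 3.18%. The stretches of Ifit1 (chr19:34640759-34640838, plus strand) and Isg15 (chr4:156200846-156200925, minus strand) show it in capitals; in Isg15 3 matches overlap.
Ifit1: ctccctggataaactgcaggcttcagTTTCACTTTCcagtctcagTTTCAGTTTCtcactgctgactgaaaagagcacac
Isg15: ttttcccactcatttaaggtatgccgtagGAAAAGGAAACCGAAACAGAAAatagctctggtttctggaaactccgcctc
Antigen presentation by MHC class I followed the same contrast, with medians of 1.22 and 0.19. At least 2-fold higher were 8 of 14 genes in the no.1 pair and 0 in the no.2 pair (all genes 5.27% and 3.44%). Nlrc5, the activator of class I genes, differed by 2.42 and 0.51. The class I heavy chains H2-K1 (0.89 and 0.77) and H2-D1 (0.66 and 0.54) and the peptide trimmer Erap1 (1.01 and 0.90) differed more evenly. H2 genes are near-identical to their relatives, so their probes may read several of them.

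**Figure D4:**
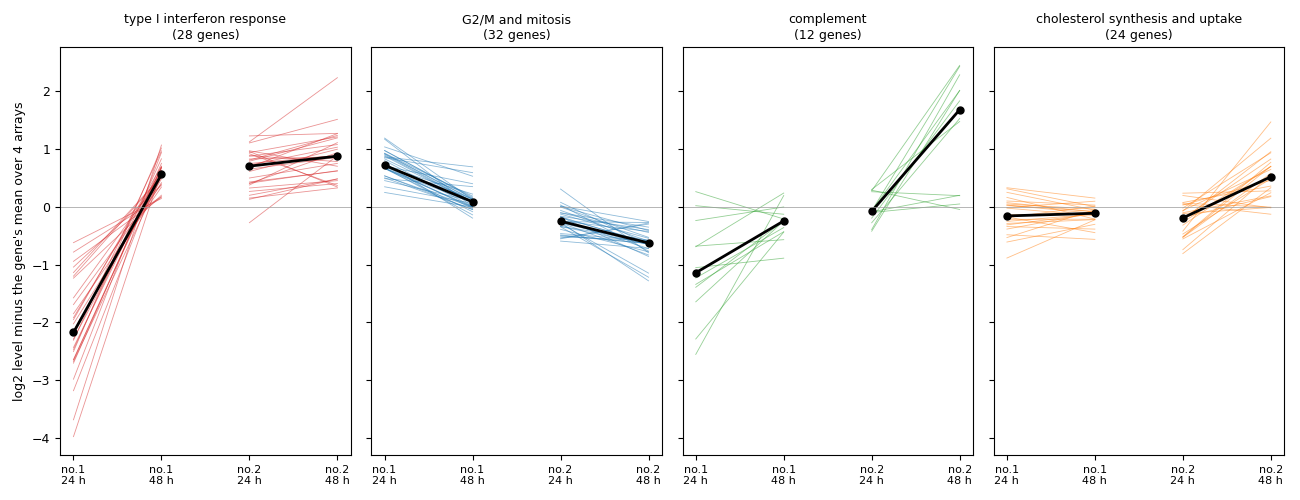
Log2 level of each tested member minus its mean over the 4 arrays, for 28 interferon, 32 G2/M, 12 complement and 24 cholesterol genes, with thin lines for genes and black points for the median of the list on each array. Interferon genes are low on the 24 h-named array of no.1 alone, G2/M genes step down in both pairs, and complement and cholesterol genes are highest on the 48 h-named array of no.2.

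Complement genes were higher in both pairs and more so in the no.2 pair. Of 12 tested genes, 8 were higher in both pairs and 0 lower (all genes 23.5% and 32.9%). At least 2-fold higher in both were 4 (all genes 0.885%), and the medians were 0.89 and 1.92. Cd55, among the 4, was tested only through the 48 h-named arrays, so the detection filter favoured its direction. With all 4 arrays well above background, 7 were higher in both and 0 lower, with medians of 0.87 and 1.80. C1s1 and C1ra, the proteases of the C1 complex, had differences of 1.40 and 2.68 and of 1.15 and 2.03. The C1s1 level was 0.07 and 1.47 in no.1 and 1.32 and 3.99 in no.2, so the 48 h-named array of no.2 alone lay above the controls at 3.13 and 3.12. C1s1 has a near-identical neighbour that its probe may also read. Cfb was described above. Cd55, which protects cells from complement, was not well above background on the 24 h-named arrays and was at least 2.77-fold higher on the 48 h-named arrays (means -5.06 and -2.44; adjusted p = 0.0589). C3, the central component, differed by 0.11 in the no.1 pair and 1.80 in the no.2 pair, and Serping1, the C1 inhibitor, by 0.16 and 2.08.

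Chemokine genes were spread more widely, with 12 of 24 higher in both pairs and 1 lower (all genes 23.5% and 32.9%). Ccl11 and Cxcl9 were tested only through the 48 h-named arrays, so the detection filter favoured their direction. With all 4 arrays well above background, 10 were higher in both and 1 lower. Ccl11 (eotaxin) was at least 2.17-fold higher on the 48 h-named arrays, where the 24 h-named arrays were not well above background (means -5.57 and -2.78; adjusted p = 0.0589). The interferon-inducible Cxcl9 had levels of -6.52 and -0.31 in no.1 and -0.17 and 2.27 in no.2. It was well above background on 1 of the 24 h-named arrays. Cxcl10 had levels of 4.80 and 7.43 in no.1 and 7.10 and 8.17 in no.2, with controls at 6.00 and 6.07. Both were lowest on the 24 h-named array of no.1 and highest on the 48 h-named array of no.2. Lcn2, the iron-scavenging lipocalin, differed by 1.23 and 1.54. The acute-phase protein Saa3 differed by -0.02 and 3.92, named after its values were seen.

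Fibrillar collagens were higher mainly in the no.2 pair, and other matrix groups were mixed. Among 12 fibrillar and fibril-associated collagens the median difference was 0.26 in the no.1 pair and 1.00 in the no.2 pair, with 7 higher in both pairs and 1 lower (all genes 23.5% and 32.9%). In the no.1 pair 2 were at least 2-fold higher and in the no.2 pair 6 (all genes 5.27% and 3.44%). Col3a1, type III collagen, had levels of 3.51 and 4.40 in no.1 and 4.86 and 6.49 in no.2. Its mean difference was 1.26 ± 0.30 (moderated SE over 2 pairs, adjusted p = 0.351). Col5a3 differed by 1.36 and 1.70, Col2a1 by 1.09 and 1.67 and Col11a1 by 0.35 and 1.84. The main chains of type I collagen, Col1a1 (-0.17 and -0.04) and Col1a2 (0.23 and 0.14), stayed within 0.25 of 0 in both pairs. Of 12 network and other collagens 2 were higher in both pairs and 4 lower, not far from the all-gene shares of 23.5% and 32.9%. Their medians were -0.39 and -0.07, with Col6a2 at 1.19 and 0.85 and the basement-membrane chain Col4a2 at -0.89 and -0.47.

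Proteoglycan and elastic-fibre genes were higher in both pairs at 13 of 21 and lower at 2 (all genes 23.5% and 32.9%). Beside Ogn, its relative Omd was not well above background on the 24 h-named arrays and was at least 1.34-fold higher (means -5.54 and -3.48; adjusted p = 0.121). The microfibril gene Mfap2 differed by 1.46 and 1.03 and Efemp1, a fibulin, by 0.85 and 1.60. Matrix proteases and inhibitors were higher in both pairs at 13 of 20 and lower at 2. Mmp3 (stromelysin) differed by 1.52 and 0.95 and Plat, which activates plasminogen, by 1.46 and 0.50. Among the 26 enzymes of collagen modification 12, Plod2 included, were lower in both pairs and 4 higher, with medians of -0.15 and -0.07. This lean depended on the scaling: with quantile normalization 6 were lower and 9 higher, and with spike-in scaling 3 were lower and 6 higher.

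Contractile and immediate early genes were on the lower side. Of 21 contractile genes and targets of serum response factor, 14 were lower in both pairs and 0 higher (all genes 32.9% and 23.5%). All 21 were lower in the no.1 pair, and the medians were -0.43 and -0.16. Cnn1 (calponin) had levels of 7.52 and 6.19 in no.1 and 6.74 and 5.95 in no.2. Its mean difference was -1.05 ± 0.29 (moderated SE over 2 pairs, adjusted p = 0.391). Both 48 h-named arrays lay below the controls at 7.04 and 7.17. Tpm2 (tropomyosin) differed by -0.74 and -0.55. Of 25 immediate early genes, 15 were lower in both pairs and 0 higher. Ier2 differed by -0.91 and -1.17, Egr1 by -0.53 and -1.61 and Zfp36, which speeds mRNA decay, by -0.84 and -0.38. In the no.2 pair 11 of the 25 were at least 2-fold lower and in the no.1 pair 0, against 4.74% and 1.32% of all tested genes. The contractile median of the no.2 pair turned to 0.12 with quantile normalization, where 7 genes were lower in both pairs, and to 0.42 with spike-in scaling, where all genes stood at 0.50. The immediate early medians stayed below 0 under the scalings tried, the no.2 median at -0.004 with spike-in scaling.

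For YAP and TAZ targets, which respond to cell spreading and stiffness, the medians were -0.53 and 0.19, and of 19 tested genes 9 were lower in both pairs, 9 went in opposite directions and 1, Igfbp3 (2.15 and 1.40), was higher in both. With quantile normalization 7 were lower in both and 3 higher, and with spike-in scaling 3 and 1. Filopodia and actin-assembly genes, the subject of the series title, differed little: 12 of 27 were lower in both pairs and 2 higher (all genes 32.9% and 23.5%), and none was past 2-fold in either pair. With quantile normalization 8 were lower and 2 higher, and with spike-in scaling 2 were lower and 3 higher. Diaph3, a formin, was lower by 0.85 and 0.73 on the log2 scale, with an adjusted p of 0.484. Rhoa differed by -0.30 and -0.51. The integrin subunit Itga11, which binds collagen, differed by 0.56 and 1.94 and the laminin-binding Itga6 by -0.62 and -1.14.

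Cholesterol synthesis genes differed in the no.2 pair and little in the no.1 pair. In the no.2 pair 10 of 24 were at least 2-fold higher (all genes 3.44%) and in the no.1 pair 0, with medians of 0.96 and -0.06. Hmgcs1, an early enzyme of the pathway, had levels of 4.96 and 5.16 in no.1 and 4.62 and 5.85 in no.2, all above the controls at 2.00 and 1.95. The 48 h-named array of no.2 was the highest of the 4 and the 24 h-named array of no.2 the lowest. Nsdhl differed by 0.03 and 1.29 and Tm7sf2, a sterol reductase, by 0.66 and 1.26. Whether the pairs differ was not tested. Lysosomal genes were shifted by small, even amounts, with medians of 0.39 and 0.26. Of 29 genes, 25 were higher in both pairs and 1 lower (all genes 23.5% and 32.9%). Tpp1, a peptidase, differed by 0.89 and 0.74 and Ctsa, a carboxypeptidase, by 0.73 and 0.50.

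Wnt genes included several secreted modulators that were higher in both pairs. Of 17 tested genes, 11 were higher in both and 1 lower (all genes 23.5% and 32.9%), and 3 were at least 2-fold higher in both (all genes 0.885%): Rspo3, Rspo2 (1.13 and 1.00) and the frizzled-related Sfrp2. Sfrp2 differed by 1.57 and 2.68, from levels of -0.38 on the 24 h-named array of no.1 to 3.78 on the 48 h-named array of no.2, and all 4 arrays lay above the controls at -0.89 and -0.86. Its mean difference was 2.12 ± 0.34 (moderated SE over 2 pairs, adjusted p = 0.146). Among growth factors, Angpt1, a Tie2 ligand, differed by 3.35 and 2.15 (adjusted p = 0.0737), with 1 of the 24 h-named arrays well above background. Hbegf, an EGF receptor ligand, differed by -1.02 and -1.23. Areg, another such ligand, differed by 0.83 and -3.58. In the clock list Rora differed by 0.84 and 1.31 and Nr1d1 by -1.11 and -0.64. Of its 17 genes, 4 were higher in both pairs and 4 lower, no more than the all-gene shares.

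Some genes went in opposite directions in the 2 pairs. By 2-fold or more, 42 genes (0.193%) were higher in the no.1 pair and lower in the no.2 pair, and 13 (0.0596%) the reverse. Il11, a cytokine of fibrosis, had levels of -1.06 and 0.60 in no.1 and 0.86 and -1.60 in no.2. Tnfrsf18, a receptor of the TNF family, had levels of -1.53 and 0.77 in no.1 and 1.17 and -0.83 in no.2. In both, the 48 h-named array of no.1 and the 24 h-named array of no.2 were the 2 highest. Edn1 (endothelin) had levels of 0.25 and -2.55 in no.1 and -2.96 and -1.29 in no.2. For Jag1, a Notch ligand, the no.1 levels were -0.30 and -1.73 and the no.2 levels -1.84 and -0.06. In these the same 2 arrays were the lowest.

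**Figure D5:**
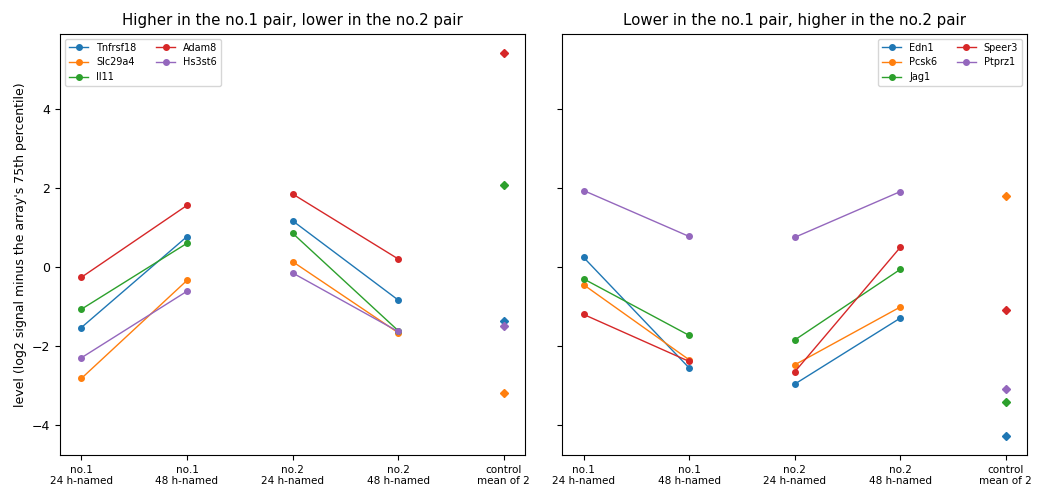
Level (log2 signal minus the array's 75th percentile) on each of the 4 arrays for the 5 genes highest on the middle arrays (left) and the 5 lowest there (right), with lines joining the arrays of a pair and diamonds for the mean of the 2 control arrays. Il11 reaches 0.60 and 0.86 on the 48 h-named array of no.1 and the 24 h-named array of no.2, and Edn1 is at -2.55 and -2.96 there.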

How the data were processed

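Total RNA of 6 samples was hybridised to Agilent 1-colour arrays; the 4 LH2 cKO arrays were compared and the 2 control arrays shown beside them. Per the file headers, the deposited intensity is Agilent Feature Extraction 12.1.1.1 processed signal, background-subtracted and not normalized between arrays; version 9.5.1.1 is named in the submitters' processing notes. The series' value table, as deposited by the authors, held intensity; at least 99.97% of an array's values matched the processed signal after quantile normalization to within 1%, and 0 columns lacked a sample. All 6 arrays share 1 slide, so slide could not be a block. The number of arrays limits the precision.

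Levels are log2 of the processed signal, with the 75th percentile of the 56605 non-control probes subtracted on each array. Accessions were matched to RefSeq symbols (GRCm38.p6, names only, since the files name mm9): 32994 probes (58.3%) got a symbol and 23611 kept the file's name. The probe of highest mean stood for a gene. A gene was tested where it was well above background on both 24 h-named or both 48 h-named arrays: 21808 genes, 13565 with a symbol. No probe was saturated (0). Tests used limma 3.58.1 (R 4.3.3, data.table package 1.17.8) with the pair as a term and Benjamini-Hochberg adjustment; every adjusted p is limma's. The prior had 6.21 degrees of freedom. Simulated data with 200 changed genes gave between 1 and 15 false calls.

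The members, the 42 lists (965 distinct genes) and the tests were chosen with earlier results of these data known. Named genes are Plod1 to Plod3, the 10 largest shared differences in each direction by the smaller pair difference and 5 opposed genes in each direction (well above background on all 4 arrays, with a RefSeq symbol, no clone, locus, Rik or accession names), at most 4 genes per list, and at most 3 bounds a direction; genes outside this rule (Smad6, Smad7, C3, Serping1, Saa3, Col1a1, Col1a2, Isg15, Rsad2, H19, Meg3, Dio3os, P4ha2, Steap4 and U90926) were named after their values were seen. Some items that the rule takes are not reported here. Lists are described by counts and medians, with no set test. Members tested only through the arrays of 1 file-name time had their direction favoured by that filter. With all 4 arrays well above background, 12 proteoglycan and elastic-fibre genes were higher in both pairs and 2 lower. The counts were 10 and 1 for Wnt genes, 6 and 1 for fibrillar collagens, and 2 and 9 for TGF-beta and BMP genes. The alternatives were scaling to the median probe, quantile, spike-in controls (7 probes), normexp with an offset of 50, the value table, 2 other filters, the mean of probes, leaving out arrays, no pair term, control arrays in the fit, and a variance trend. Because the files used here hold gMedianSignal, normexp was run on it in place of the planned mean signal. Promoters came from RefSeq, 250 bases before the start, for 27025 genes.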

Additional observations from a re-analysis of the deposited data

Results flagged for a closer look

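Genes whose difference had opposite signs in the no.1 pair and the no.2 pair were set apart, each resting on 1 array a side, so the contrast between the pairs was not tested. The no.1 difference minus the no.2 difference, on the log2 scale, was 4.30 for Tnfrsf18, 4.27 for Slc29a4, 4.13 for Il11, 3.46 for Adam8 and 3.16 for Hs3st6. It was -4.46 for Edn1, -4.34 for Speer3, -3.36 for Pcsk6, -3.21 for Jag1 and -2.32 for Ptprz1. In all, 42 genes were at least 2-fold higher in the no.1 pair and lower in the no.2 pair, and 13 the reverse. The list medians of the pairs had opposite signs for 9 of the 42 lists, and the no.1 median minus the no.2 median was -1.01 for cholesterol synthesis and uptake, -0.72 for YAP and TAZ targets, -0.27 for matricellular and adhesive matrix genes, -0.14 for integrins and focal adhesion, -0.10 for the circadian clock, 0.23 for IGF and other growth factors and 0.38 for fibroblast identity. It was 0.60 over the 6 macrophage and leukocyte markers tested and 1.26 over the 3 endothelial markers tested. For several of these lists 1 of the medians was close to 0.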

How the results depend on the processing

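No paired analysis was possible because of what the replicate number is, where the number itself would be the block: both first replicates are 24 h-named and both second replicates 48 h-named, so it is the factor compared. The fit pairs arrays by no.1 and no.2 instead, and every adjusted p rests on that pairing. limma called 0 genes, and 0 also with quantile normalization, normexp, the value table, the mean of probes, no pair term and the control arrays in the fit. It called 71 higher and 17 lower with scaling to the median probe, 366 and 22 with spike-in scaling, 881 and 492 with no filter on dim probes (45616 genes), 18 and 3 with all 4 arrays well above background (19917 genes), and 44 and 6 with a variance trend. The prior degrees of freedom were infinite with spike-in scaling and 148 with no filter, against 6.21 in the main fit. In those 2 settings a gene's own pairs weighed little or nothing in its test. Spike-in scaling moved the median of all genes from -0.06 to 0.21. The 193 higher and 51 lower genes past 2-fold in both pairs became 425 and 21 with spike-in scaling, 20 and 8 with normexp, 465 and 263 with no filter, and 93 and 25 with the stricter filter. In 1 pair alone, 750 to 1150 were higher and 287 to 1033 lower. The correlation of the pairs across genes, 0.212, was 0.088 with no filter. Neither that correlation nor the split of the spread can be had from 1 pair, and neither has a test. The mean difference of Plod1 was -0.10 in the no.2 pair alone and up to 0.34 in the no.1 pair alone. The Plod3 difference turned from -0.12 to 0.01 with quantile normalization and with the value table, 0.14 with spike-in scaling and 0.04 with the mean of probes. The next count covers Plod1 to Plod3 and the named genes that went the same way in both pairs, 105 in all. Named genes with opposed pairs were left out of it. Over 11 alternatives, 978 of 1145 values kept their direction and side of the threshold, 163 passed the threshold and 4 changed sign. Direction could not change with no pair term, control arrays in the fit or a variance trend, which leave the estimate as it was. The same holds with no filter on dim probes and with the stricter filter, which change only the genes tested. The cause was not tested. Signal over background limits dim genes: 19917 of 21808 tested genes were well above background on all 4 arrays.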

Other observations

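Genes of general cell machinery were on the lower side of the 48 h-named arrays by small amounts that turned on the scaling. Of 28 respiratory chain genes 22 were lower in both pairs and 2 higher, and of 26 proteasome genes 19 and 0. For RNA-binding and splicing the counts were 20 and 2 of 30, and for heat shock and chaperonin 14 and 1 of 21. Over all tested genes 32.9% were lower in both pairs and 23.5% higher. Their medians over both pairs lay between -0.34 and -0.21, and no respiratory chain or proteasome gene reached 2-fold in either pair. Cytosolic ribosomal genes were lower in both pairs at 17 of 32 and higher at 0, with medians of -0.04 and -0.45. With quantile normalization the genes lower and higher in both pairs were 10 and 6 for the respiratory chain, 7 and 2 for the proteasome, 14 and 4 for RNA-binding and splicing, 8 and 4 for heat shock and 10 and 5 for ribosomal genes. With spike-in scaling the medians over both pairs of the respiratory, proteasome and ribosomal lists turned to 0.02, 0.05 and 0.03, under the 0.21 of all genes. Hsp90aa1, the stress-inducible HSP90, differed by -0.58 and -0.83, and Cct6a of the chaperonin by -0.57 and -0.94.

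The non-coding RNA genes H19, Meg3 and Dio3os were picked after their values were seen, with no list behind them. H19 had levels of 0.80 and 2.86 in no.1 and 3.69 and 5.22 in no.2. Meg3 had levels of 2.33 and 4.08 in no.1 and 3.78 and 4.94 in no.2. Dio3os, antisense to Dio3, differed by 2.79 and 1.55; which strand each probe reads was not checked here. In the collagen-modification list P4ha2, a prolyl hydroxylase, differed by 4.13 in the no.1 pair and -0.47 in the no.2 pair.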
